A study of Mus musculus with 25 samples.

Results

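The genes of the inflammasome and of pyroptosis were followed across the genotypes of a mouse neutrophil study. The group holds 10 genes picked by name, Casp1, Casp4, Gsdmd, Nlrp3, Aim2, Nlrc4, Naip5, Mefv, Nlrp12 and Pycard, among 35741 gene symbols in the deposited count table. All 10 were kept by the filter on low counts, together with 16206 genes in all. The study concerns Ptpn6, the gene of the phosphatase SHP-1, and inflammation that depends on caspase-8, Ripk3 and Mlkl. Female C57BL/6J mice aged 6 to 13 weeks gave the bone marrow, and its neutrophils were profiled by bulk messenger RNA sequencing. The alleles combined were Ripk3-/- and Mlkl-/-, which are knockouts of the kinase and the effector of necroptosis, and Ptpn6∆PMN and Casp8∆PMN, deletions that the labels mark as made in PMN, the usual short name of neutrophils.

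The groups were Casp8∆PMN Ptpn6∆PMN (1 library, and the only one labelled as inflamed), Casp8∆PMN Mlkl-/- Ptpn6∆PMN (2), Ripk3-/- Mlkl-/- Casp8∆PMN Ptpn6∆PMN (2), Ripk3-/- Mlkl-/- Ptpn6∆PMN (3), Ripk3-/- Mlkl-/- (2), Mlkl-/- Ptpn6∆PMN (2), Mlkl-/- (3), Ripk3-/- Ptpn6∆PMN (3), Ripk3-/- (3) and wild-type (3). Another library had labels that conflict and was placed in no group. No group had the Ptpn6 deletion alone, so each effect of Ptpn6 was measured in mice that lacked Ripk3, Mlkl or both, in deleted and control animals alike. No library had a ∆PMN deletion with Ptpn6 intact, so loss of Ptpn6 and presence of the deleting transgene cannot be told apart. The promoter that drives the deletion is not given in the sources used here. Nothing in the labels says whether libraries of a group came from separate animals, and p-values measure the spread between these libraries.

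An inflammasome is a protein platform that assembles when a sensor meets a danger signal, recruits the adaptor ASC (gene Pycard) and activates caspase-1. Caspase-1 cuts the precursors of interleukin-1 beta and interleukin-18, and caspase-1 and caspase-11 (gene Casp4 in the mouse) cut gasdermin D (Gsdmd), whose released fragment makes pores in the membrane and causes the lytic death called pyroptosis. Neutrophils express many of these parts and can release interleukin-1 beta, and loss of SHP-1 in mice is known for neutrophil-driven inflammation.

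Casp1 and Casp4 are neighbours in mouse genome build GRCm38.p6. Casp1 lies at chr9:5298517-5307281 and Casp4 at chr9:5308849-5336791, with 1567 bases between them. The other genes lie at chr15:75862144-75867408 (Gsdmd), chr11:59541569-59566955 (Nlrp3), chr1:173349547-173466040 (Aim2), chr17:74426255-74459144 (Nlrc4), chr13:100211735-100250930 (Naip5), chr16:3706974-3718211 (Mefv), chr7:3218643-3249771 (Nlrp12) and chr7:127991373-127993867 (Pycard). None of the 10 shares a chromosome with Ptpn6, Ripk3 or Mlkl. Aim2 is on the chromosome of Casp8, 114.5 megabases away. In the GENCODE annotation the exons of Pycard share 485 bases with a gene on the opposite strand, Gm45205. Those of Nlrp12 share 62 to 84 bases each with microRNA genes, Mir292b on the same strand and the others on the opposite strand. Naip5 has close relatives (Naip1, Naip2 and Naip6), as do Casp4 (Casp12) and Aim2 (other genes of the HIN-200 family), so their estimated counts can share reads.

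Promoters are shown for the pair of genes called below, Casp4 and Aim2, and for Casp1, which followed Casp4 across libraries. RefSeq gave a promoter (250 bases before to 50 after the start, GRCm38.p6) for 9 of the 10 genes. The first of the Casp4 starts in that table is used, at chr9:5308599-5308898, with Casp1 at chr9:5298267-5298566 and Aim2 at chr1:173420354-173420653, all on the plus strand. Capitals mark matches to the consensus of NF-kB, a transcription factor of inflammation.
Casp4: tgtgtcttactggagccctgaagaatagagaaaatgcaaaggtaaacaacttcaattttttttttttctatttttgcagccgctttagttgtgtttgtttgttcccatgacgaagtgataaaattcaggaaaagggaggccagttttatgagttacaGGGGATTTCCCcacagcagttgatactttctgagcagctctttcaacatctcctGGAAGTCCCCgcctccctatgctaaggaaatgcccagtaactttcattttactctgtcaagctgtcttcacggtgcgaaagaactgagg
Casp1: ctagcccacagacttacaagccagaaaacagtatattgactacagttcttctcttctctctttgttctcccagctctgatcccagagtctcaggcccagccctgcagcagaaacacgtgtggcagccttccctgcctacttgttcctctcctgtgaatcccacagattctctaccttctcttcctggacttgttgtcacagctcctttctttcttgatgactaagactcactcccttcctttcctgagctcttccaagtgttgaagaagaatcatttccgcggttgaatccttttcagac
Aim2: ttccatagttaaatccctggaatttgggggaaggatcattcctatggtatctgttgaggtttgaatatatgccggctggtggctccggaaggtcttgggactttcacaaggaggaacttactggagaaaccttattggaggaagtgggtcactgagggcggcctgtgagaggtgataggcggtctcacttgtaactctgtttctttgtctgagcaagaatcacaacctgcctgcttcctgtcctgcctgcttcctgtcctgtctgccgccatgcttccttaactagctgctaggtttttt
The Casp4 promoter matched the NF-kB consensus at 3 positions, some of which overlap, and the Casp1 and Aim2 promoters had no match. Among the other members, Naip5 and the upstream start of Nlrp3 had 1 match each. On either strand, 8.46% of the 32851 promoters in the table matched it. TTCNNNGAA, the site of interferon-gamma-activated factors, was in 8.3% of promoters, in that of Nlrp12 and in none of these 3, and the core of the interferon-stimulated response element, GAAA repeated after a gap of any 2 bases, was in 3.44% and in none of the 3.

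Depth was even, from 21598063 to 23187557 estimated counts per library. Counts were scaled by effective library size to CPM, a unit adjusted for depth. It is not divided by gene length, so levels of different genes are not compared. Ptpn6 stood between 119 and 315 CPM in the 13 libraries labelled as deleted and between 487 and 706 in the 11 labelled as intact. Ripk3 was at 0 to 0.153 CPM in knockout libraries and at 2.51 to 10.2 in the others, whereas Mlkl (0.232 to 1.64 in Mlkl-/- libraries, against 1.40 to 4.72 in the others) and Casp8 (16.3 to 23.8 in Casp8∆PMN libraries, against 21.0 to 36.9 in the others) overlapped. All 10 late-stage neutrophil markers were present in every library, with a summed level of 50070 to 101522 CPM. Markers of B cells were present too, at 426 to 1929 CPM in sum. So were those of erythroid cells (693 to 10386 CPM), basophils and mast cells (1006 to 2327 CPM) and monocytes (714 to 1505 CPM). In bulk RNA, fewer cells of a type and less RNA per cell cannot be told apart.

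**Figure D1:**
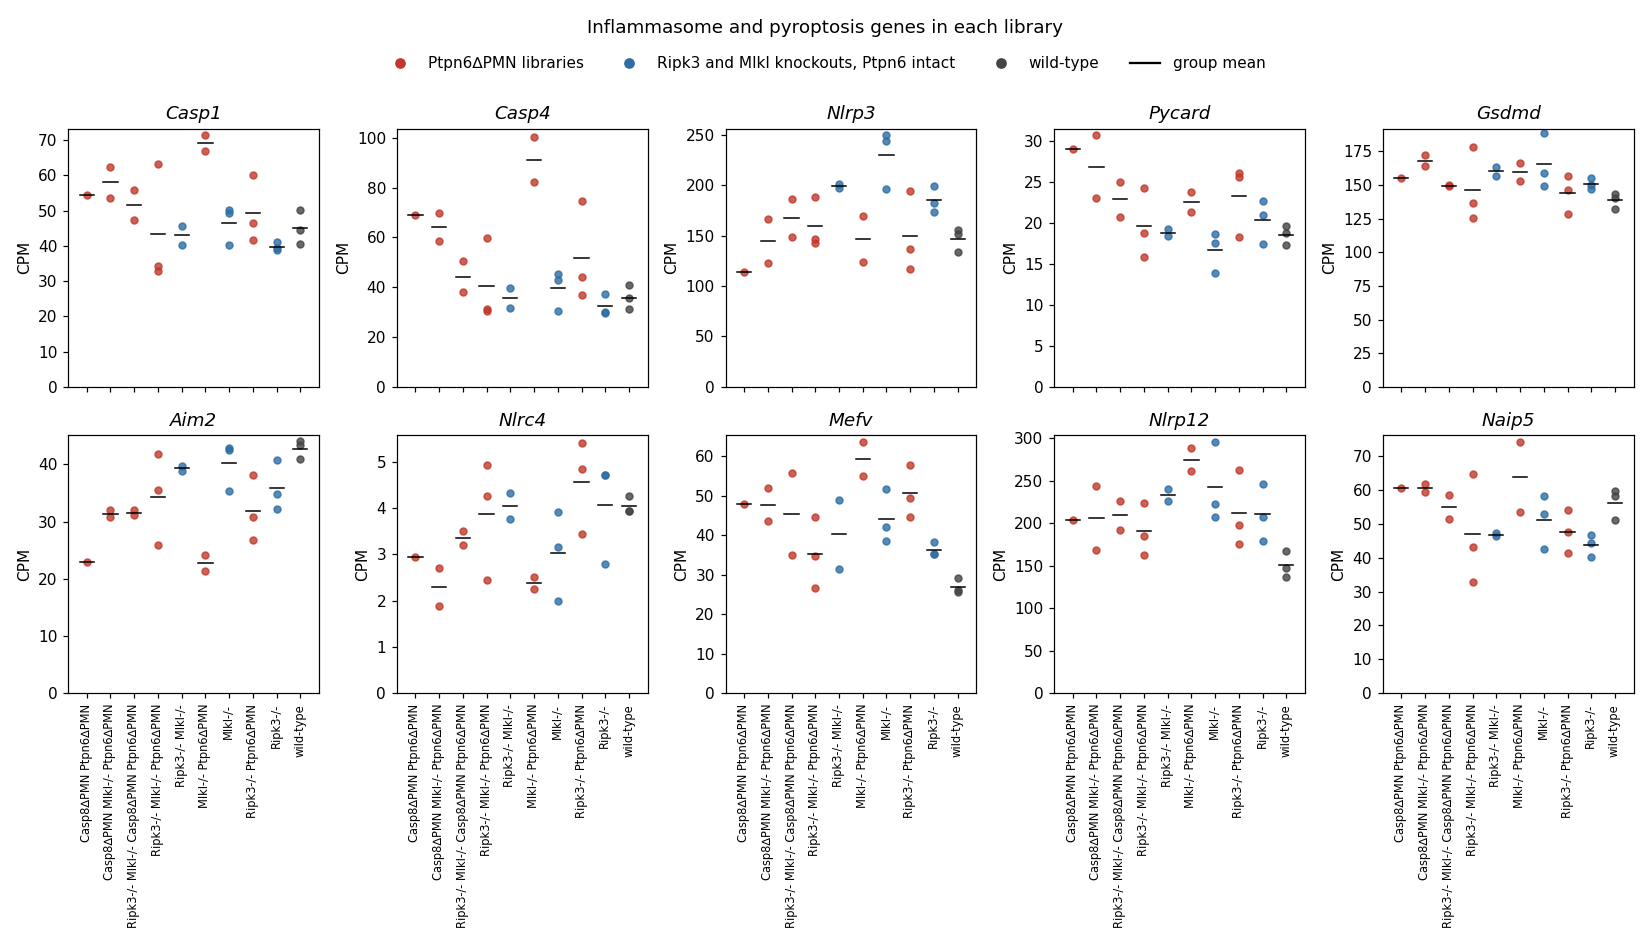
CPM of each of the 10 genes (one panel per gene, axis from 0) in the 24 libraries with a group. Points are libraries, short black lines are group means and colours give the Ptpn6 and knockout status. Casp4 and Casp1 are highest in the Mlkl-/- Ptpn6∆PMN libraries, where Casp4 has 82.1 and 100.2 CPM, and Aim2 is lowest in these (24.2 and 21.4 CPM) and in the Casp8∆PMN Ptpn6∆PMN library (22.9 CPM).

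In Mlkl-/- neutrophils, deletion of Ptpn6 came with more Casp4 and less Aim2. Casp4 encodes caspase-11, which binds lipopolysaccharide in the cytosol, and Aim2 encodes a sensor of DNA in the cytosol. Casp4 rose 2.30-fold and Aim2 fell to 0.566 of the Mlkl-/- level. These were 2 of the 10 genes, where edgeR's quasi-likelihood test called 1.51% of all genes tested at a Benjamini-Hochberg adjusted p under 0.05. The other 8 did not pass.

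Casp4 had 82.1 and 100.2 CPM in the 2 Mlkl-/- Ptpn6∆PMN libraries, against 30.6, 42.8 and 45.1 CPM in the 3 Mlkl-/- libraries. Both deleted libraries were far above all 3 controls, and the groups did not overlap. The log2 change was 1.20 (SE 0.28, edgeR adjusted p = 0.0431). Aim2 had 24.2 and 21.4 CPM in Mlkl-/- Ptpn6∆PMN libraries, against 35.4, 42.9 and 42.5 CPM in Mlkl-/- libraries. Both deleted libraries were below every control. The log2 change was -0.82 (SE 0.18, edgeR adjusted p = 0.0330).

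Casp1, the caspase that matures interleukin-1 beta, had 67.0 and 71.4 CPM in Mlkl-/- Ptpn6∆PMN and 40.4, 50.1 and 49.3 CPM in Mlkl-/- libraries. The groups were apart, but the change missed the threshold (log2 0.57, SE 0.21, edgeR adjusted p = 0.169). Gsdmd was at 160 ± 9.84 CPM (SD, n = 2) in Mlkl-/- Ptpn6∆PMN and 166 ± 20.6 CPM (n = 3) in Mlkl-/- neutrophils, and these values overlapped. Nlrp3, the sensor of potassium loss and membrane damage, had 169.5 and 124 CPM in Mlkl-/- Ptpn6∆PMN, against 195.7, 244 and 249 CPM in Mlkl-/- libraries. Its groups did not overlap either, with a log2 difference of -0.65 (SE 0.20, edgeR adjusted p = 0.106). The pyrin gene Mefv, at 59.2 ± 5.98 CPM in Mlkl-/- Ptpn6∆PMN (SD, n = 2) and 44.0 ± 6.78 CPM in Mlkl-/- neutrophils (n = 3), was apart as well and did not pass (edgeR adjusted p = 0.323). The adaptor gene Pycard was at 22.5 ± 1.74 CPM in Mlkl-/- Ptpn6∆PMN and 16.7 ± 2.49 CPM in Mlkl-/- neutrophils, also apart (edgeR adjusted p = 0.263). In all, 6 of the 10 genes had groups that did not overlap, 4 higher and 2 lower, where 35.8% of all genes tested did so. Nlrp12, Naip5 and Nlrc4 overlapped.

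Each of the 5 fits that left out 1 library of this comparison lost both calls. Casp4 then had log2 changes of 1.05 to 1.32 (edgeR adjusted p = 0.0693 to 0.448) and Aim2 of -0.93 to -0.72 (edgeR adjusted p = 0.0570 to 0.448), with the highest p values without Mlkl-/- Ptpn6∆PMN replicate 2. Other cells and cell states moved along. All 10 B cell markers lay lower in Mlkl-/- Ptpn6∆PMN (median log2 difference -0.86; summed level 426 to 472 CPM against 649 to 998 in Mlkl-/-), and 9 of 10 late-stage neutrophil markers lay higher (median 0.47). All 9 macrophage markers lay lower (median -1.19; summed level 60.8 to 96.1 CPM against 79.1 to 202 in Mlkl-/-). T and NK cell markers also lay lower, in 9 of 9 (median -0.53). Markers of the primary granule stage of neutrophils lay higher in 6 of 6 (median 0.71). Basophil and mast cell markers did so in 8 of 8 (median 0.35) and monocyte markers in 7 of 8 (median 0.72). The interferon response genes were above 0 in 20 of 20, with a median of 1.03 and 4 called, while the median over all genes was -0.04. The part of these lists in the values of Casp4, Aim2 and Nlrp3 was not tested.

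**Figure D2:**
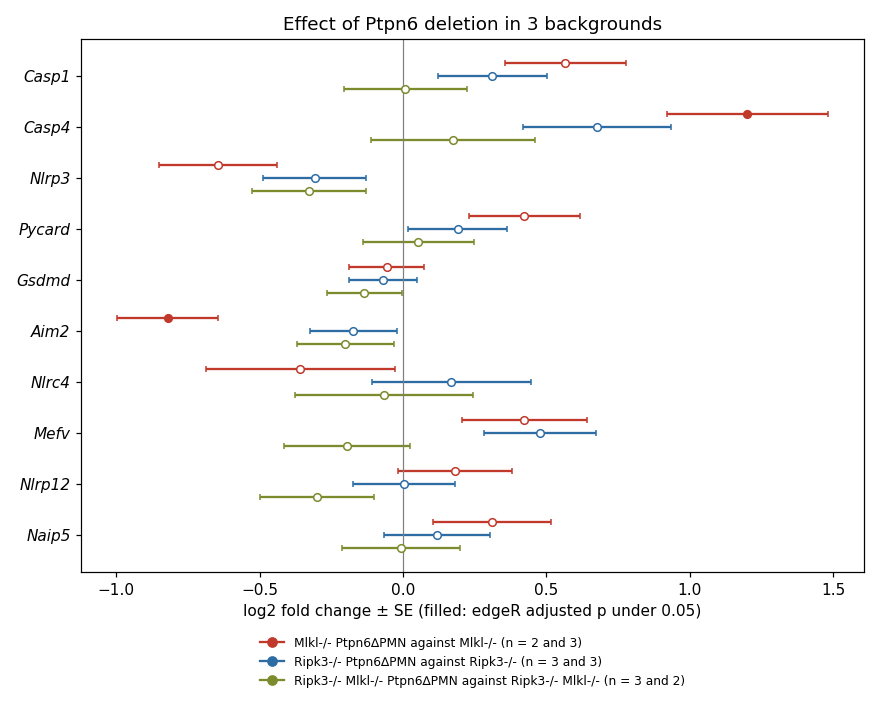
Log2 fold change with Ptpn6 deletion for each gene in 3 backgrounds, with 1 SE to each side. Filled points passed an edgeR adjusted p under 0.05. The 2 filled points are Casp4 (1.20) and Aim2 (-0.82) in Mlkl-/- neutrophils.

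In Ripk3-/- neutrophils no inflammasome gene passed the edgeR test after deletion of Ptpn6, where 0.0185% of all genes did. An unadjusted p under 0.05 was reached by 2 of the 10 (Casp4 and Mefv), and DESeq2 called 0. Casp4 had 36.9, 74.8 and 44.1 CPM in Ripk3-/- Ptpn6∆PMN, against 29.6, 37.2 and 30.2 CPM in Ripk3-/- libraries. Replicate 2 of the deleted group was high and the lowest lay within the control range (log2 0.68, SE 0.26, edgeR adjusted p = 0.755). Mefv had 49.4, 57.8 and 44.5 CPM in Ripk3-/- Ptpn6∆PMN and 35.2, 38.3 and 35.3 CPM in Ripk3-/- libraries. Every deleted library was above every control (log2 0.48, SE 0.20, edgeR adjusted p = 0.815). Casp1 was the other gene of 2 in 10 whose groups were apart, against 9.19% of all genes, and it was at 49.5 ± 9.61 CPM in Ripk3-/- Ptpn6∆PMN and 39.7 ± 1.12 CPM in Ripk3-/- neutrophils (SD, n = 3 each). The remaining 7 genes overlapped, with log2 differences from -0.31 (Nlrp3) to 0.19 (Pycard). B cell markers were lower in 10 of 10 (median log2 difference -0.35) and macrophage markers in 9 of 9 (-0.89). Primary granule markers were higher in 5 of 6 (median 1.20). The part of these lists in the values was not tested.

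Deletion of Ptpn6 in neutrophils without Ripk3 and Mlkl left all 10 genes short of the threshold, where edgeR called 0.00617% of all genes. Ptpn6 itself missed the threshold as well, at 294 CPM in deleted and 591 CPM in control libraries, without overlap (log2 -1.01, SE 0.17, edgeR adjusted p = 0.0838). A missing call here therefore does not show that a gene was unchanged. Before adjustment 0 of the 10 had a p under 0.05, and DESeq2 called 0. Casp4 had 31.2, 30.6 and 59.7 CPM in Ripk3-/- Mlkl-/- Ptpn6∆PMN, against 39.7 and 31.7 CPM in Ripk3-/- Mlkl-/- libraries. Only replicate 3 of the deleted group was high, and that library also had the lowest B cell marker level of its group, a mean log2 CPM of 5.15 against 7.32 and 6.87 in the other two; their part in the Casp4 value was not tested. Aim2 had 35.4, 25.9 and 41.8 CPM in Ripk3-/- Mlkl-/- Ptpn6∆PMN and 38.9 and 39.7 CPM in Ripk3-/- Mlkl-/-, with overlap. Nlrp3 had 143, 146 and 188 CPM in Ripk3-/- Mlkl-/- Ptpn6∆PMN and 201 and 197 CPM in Ripk3-/- Mlkl-/-. Nlrp3 and Nlrp12 were the 2 genes of 10 whose groups were apart, both lower in the deleted libraries, where 13.4% of all genes were apart. Macrophage markers were lower in 9 of 9 (median log2 difference -1.42), erythroid markers in 10 of 10 (-1.21) and interferon genes in 20 of 20 (-0.53). B cell markers were higher in 10 of 10 (median 0.51). The part of these lists was not tested.

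Averaged over the 3 backgrounds, Casp4 rose (log2 0.68, SE 0.16, edgeR adjusted p = 0.0367) and Aim2 fell by 0.40 (SE 0.10, edgeR adjusted p = 0.0419). These 2 of the 10 genes stand beside 1.55% of all genes called. Casp4 was above its control mean and Aim2 below it in 3 of 3 backgrounds. In Ripk3-/- Mlkl-/- the higher Casp4 mean came from replicate 3 of the deleted group, and the 2 other deleted libraries were below both controls. The Casp4 log2 change in that background ran from -0.22 to 0.35 over the fits that left out a library. Nlrp3 was lower in each background and averaged a log2 difference of -0.43 (SE 0.11), which missed the threshold in the main edgeR test (adjusted p = 0.0616). It passed in edgeR without the filter on low counts (adjusted p = 0.0348) and in DESeq2 (adjusted p = 0.0189). A fit of only the compared libraries did not call Nlrp3. Its log2 difference ran from -0.52 to -0.35 over the fits that left out a library. Of 16 fits that left out a library, 5 called Casp4 (edgeR adjusted p = 0.00704 to 0.188 over the 16), namely those without replicate 1 of Ripk3-/- Ptpn6∆PMN, replicate 1 of Mlkl-/- Ptpn6∆PMN or any single replicate of Ripk3-/- Mlkl-/- Ptpn6∆PMN. Aim2 was called in 5 (edgeR adjusted p = 0.00637 to 0.215), those without replicate 1 of Ripk3-/- Ptpn6∆PMN, of Mlkl-/-, of Mlkl-/- Ptpn6∆PMN or of Ripk3-/- Mlkl-/- Ptpn6∆PMN, or replicate 3 of the last. Leaving out any other library ended the call. In a fit of only these libraries neither passed (edgeR adjusted p = 0.110 for Casp4 and no lower for Aim2). Macrophage markers were lower in 9 of 9 (median log2 difference -1.17, 2 called), and their part was not tested.

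The size of the Ptpn6 effect was not shown to differ among the backgrounds. No gene of the 10 passed the edgeR F test for a difference among the 3 effects, which called 0% of all genes, and DESeq2 called 0 as well. Aim2 was the 1 gene with a p under 0.05 before adjustment (edgeR adjusted p = 0.758), whose log2 change was -0.82 in Mlkl-/-, -0.17 in Ripk3-/- and -0.20 in Ripk3-/- Mlkl-/-. For Casp4 the 3 log2 changes were 1.20, 0.68 and 0.17 in that order (edgeR adjusted p = 0.770). Ptpn6 itself had log2 changes of -1.71, -1.26 and -1.01 in the same order, so the backgrounds are not compared at an equal loss of Ptpn6. The F test did not call Ptpn6 either. The part of the Ptpn6 level in the Casp4 and Aim2 values was not tested.

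Over all libraries, the Ptpn6-deleted ones reached levels of Casp4 that no intact library had. Casp4 ran from 30.6 to 100.2 CPM with a median of 58.6 in the 13 deleted libraries, and from 29.6 to 45.1 CPM with a median of 35.5 in the 11 intact libraries. Aim2 ran from 21.4 to 41.8 CPM (median 30.7) in deleted libraries and from 32.2 to 44.0 CPM (median 40.8) in intact ones. For both genes the ranges overlapped. Gsdmd had nearly equal medians, 153 CPM in deleted and 150.2 CPM in intact libraries. These ranges mix backgrounds and carry no test.

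Knockout of Ripk3 or Mlkl alone, with Ptpn6 intact, went with higher Nlrp12, Mefv and Nlrp3 in every library than in wild-type, but no gene passed the main test. Nlrp12 encodes a NOD-like receptor known mainly as a brake on NF-kB signalling, and Mefv encodes pyrin, which detects inactivation of RhoA. The same 3 wild-type libraries serve all 3 knockout comparisons, so these are not independent of each other. Each single knockout also had less RNA of the other gene. Ripk3 averaged 3.35 CPM in Mlkl-/- and 9.54 CPM in wild-type (edgeR adjusted p = 0.0229). Mlkl averaged 1.61 CPM in Ripk3-/- and 4.16 CPM in wild-type, without overlap (edgeR adjusted p = 0.207).

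Nlrp12 had 207, 223 and 296 CPM in Mlkl-/-, against 137, 167 and 147 CPM in wild-type libraries. Mefv had 38.5, 42.0 and 51.6 CPM in Mlkl-/-, against 29.1, 26.1 and 25.7 CPM in wild-type. Nlrp3 had 195.7, 244 and 249 CPM in Mlkl-/-, against 134, 156 and 151 CPM in wild-type. In each of the 3 genes the lowest Mlkl-/- library was above the highest wild-type library. The log2 differences were 0.67 for Nlrp12, 0.69 for Mefv and 0.63 for Nlrp3 (SE 0.18, 0.20 and 0.18), and the edgeR adjusted p values were 0.0676, 0.0842 and 0.0857. These 3 genes were the members at an unadjusted p under 0.05. The main test therefore called 0 of the 10, where 1.16% of all genes were called, while DESeq2 called these 3 (adjusted p = 0.0132, 0.0196 and 0.0187) and 802 genes in all. A fit of only these 2 groups also called them (edgeR adjusted p = 0.0252, 0.0168 and 0.0178), and without Mlkl-/- replicate 1 the main test called Nlrp12 and Nlrp3 (edgeR adjusted p = 0.0416 and 0.0493). Gsdmd was higher in all Mlkl-/- libraries too, at 166 ± 20.6 CPM against 139 ± 5.62 CPM in wild-type (SD, n = 3 each, edgeR adjusted p = 0.264). Nlrc4, which assembles with Naip proteins, was lower, at 3.02 ± 0.971 CPM in Mlkl-/- and 4.05 ± 0.190 CPM in wild-type (edgeR adjusted p = 0.395). Its groups barely missed an overlap, with 3.92 CPM in the highest Mlkl-/- library and 3.93 CPM in the lowest wild-type library. In total 5 of the 10 were apart, against 31.1% of all genes. Markers of the primary granule stage of neutrophils were below 0 in 6 of 6 (median log2 difference -1.74) and macrophage markers above 0 in 9 of 9 (median 0.86), and their part in these values was not tested.

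In Ripk3-/- neutrophils Nlrp12 had 179, 207 and 246 CPM, against the same wild-type values. Mefv had 35.2, 38.3 and 35.3 CPM and Nlrp3 had 173, 182 and 199 CPM. All 9 of these values were above the wild-type range, at log2 differences of 0.47, 0.41 and 0.32. Gsdmd was also apart and higher, while Aim2 and Naip5, a receptor for flagellin, were apart and lower. No gene passed (edgeR adjusted p = 0.526 and above) where 0.228% of all genes did, while DESeq2 called 0 and 1 of the 10 (Nlrp12) had a p under 0.05 before adjustment. The 6 genes of 10 that were apart stand beside 19.5% of all genes.

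In Ripk3-/- Mlkl-/- neutrophils the same 6 genes were apart from wild-type in the same directions, against 39.9% of all genes. Nlrp12 had 240.3 and 226 CPM (log2 0.62, SE 0.20, edgeR adjusted p = 0.145), Mefv had 49.0 and 31.4 CPM and Nlrp3 had 201 and 197 CPM. The edgeR test called 0 of the 10 and 1.04% of all genes, while DESeq2 called 0 and 3 of the 10 had a p under 0.05 before adjustment. A fit of only these 2 groups called Nlrp12 (edgeR adjusted p = 0.0209). Casp1, Casp4 and Pycard overlapped wild-type in all 3 knockout groups. Primary granule markers were lower in 6 of 6 in Ripk3-/- (median log2 difference -1.31) and in Ripk3-/- Mlkl-/- (-2.02). In Ripk3-/- Mlkl-/- the interferon genes were above 0 in 20 of 20 (median 0.88) and macrophage markers in 9 of 9 (0.83, 1 called), while basophil and mast cell markers were below 0 in 7 of 8 (median -1.83, 2 called). The part of these lists was not tested.

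**Figure D3:**
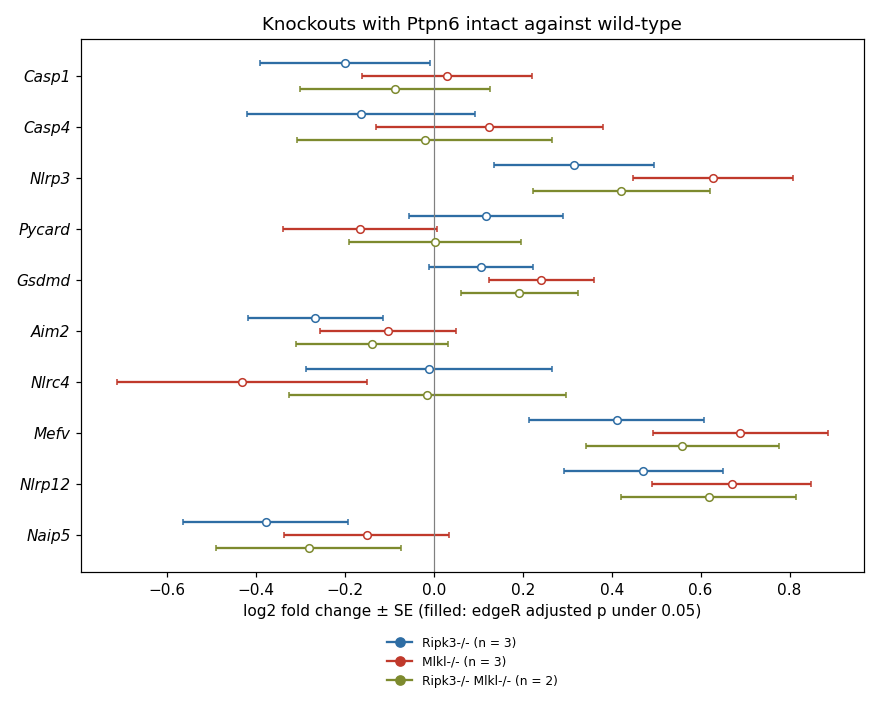
Log2 fold change of each gene in the 3 knockout groups with intact Ptpn6 against the same 3 wild-type libraries, with 1 SE to each side. Open points did not pass an edgeR adjusted p under 0.05, and all points are open. Nlrp12, Mefv and Nlrp3 lie to the right of 0 in each group.

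Among Ptpn6-deleted neutrophils that lacked Mlkl, those that also lacked Ripk3 had lower Casp4, Casp1, Mefv and Nlrp12 and higher Aim2, and none of these differences passed the main test. The level of Ptpn6 left also differed, at 294 CPM in Ripk3-/- Mlkl-/- Ptpn6∆PMN and 188 CPM in Mlkl-/- Ptpn6∆PMN, without overlap (log2 0.64, SE 0.18, edgeR adjusted p = 0.0727). Its part in the values below was not tested. Casp4 had 31.2, 30.6 and 59.7 CPM in Ripk3-/- Mlkl-/- Ptpn6∆PMN, against 82.1 and 100.2 CPM in Mlkl-/- Ptpn6∆PMN. Every library without Ripk3 was below both others (log2 -1.17, SE 0.28, edgeR adjusted p = 0.0618). Aim2 had 35.4, 25.9 and 41.8 CPM in Ripk3-/- Mlkl-/- Ptpn6∆PMN, against 24.2 and 21.4 CPM in Mlkl-/- Ptpn6∆PMN. These groups were apart as well (log2 0.58, SE 0.18, edgeR adjusted p = 0.0792). Casp1 had 34.3, 32.9 and 63.3 CPM in Ripk3-/- Mlkl-/- Ptpn6∆PMN and 67.0 and 71.4 CPM in Mlkl-/- Ptpn6∆PMN (log2 -0.67, SE 0.21, edgeR adjusted p = 0.0821). Mefv was at 35.3 ± 8.94 CPM in Ripk3-/- Mlkl-/- Ptpn6∆PMN (SD, n = 3) and 59.2 ± 5.98 CPM in Mlkl-/- Ptpn6∆PMN (n = 2), with edgeR adjusted p = 0.0759.

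The edgeR test called 0 of the 10 in that comparison and 0.0185% of all genes, although 7 of the 10, and 4237 of all 16206 genes, had a p under 0.05 before adjustment. DESeq2 called 4 of the 10 (Casp4, Casp1, Mefv and Aim2) and 1560 genes in all, and edgeR without the filter on low counts called Casp4 (adjusted p = 0.0283). In 5 of the 10 the groups were apart, against 28.0% of all genes. Replicate 3 of Ripk3-/- Mlkl-/- Ptpn6∆PMN was the highest of its group in Casp4 and Casp1 and lay nearest to the Mlkl-/- Ptpn6∆PMN libraries. Without it edgeR called 6 of the 10, namely Casp4 (log2 -1.56, adjusted p = 0.00136), Casp1 (adjusted p = 0.00112), Naip5 (adjusted p = 0.00483), Mefv (adjusted p = 0.00531), Nlrp12 (adjusted p = 0.0248) and Nlrc4 (log2 0.95, adjusted p = 0.0296), and 4861 genes in all. The B cell markers were above 0 in 10 of 10 in the full comparison (median log2 difference 1.51) and the interferon genes below 0 in 20 of 20 (median -0.90). Their part was not tested. The comparisons of Ptpn6 deletion in Mlkl-/-, of Ripk3 loss and of Casp8 deletion with Ripk3 present all use the same 2 Mlkl-/- Ptpn6∆PMN libraries.

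Deletion of Casp8 in addition to Ptpn6 did not bring any of the 10 genes past the threshold, with Ripk3 present or absent. Casp8 itself missed the threshold in both comparisons. With Ripk3 present its groups overlapped (log2 -0.46, SE 0.18, edgeR adjusted p = 0.453). Without Ripk3 its groups were apart, and it was lower in the deleted libraries (log2 -0.70, SE 0.17, edgeR adjusted p = 0.864). Missing calls in these comparisons therefore do not show that the 10 genes were unchanged. Casp4 had 69.6 and 58.6 CPM in Casp8∆PMN Mlkl-/- Ptpn6∆PMN, against 82.1 and 100.2 CPM in Mlkl-/- Ptpn6∆PMN. Both Casp8-deleted libraries were the lower ones (log2 -0.50, SE 0.31, edgeR adjusted p = 0.662). Aim2 had 30.7 and 32.0 CPM in Casp8∆PMN Mlkl-/- Ptpn6∆PMN, against 24.2 and 21.4 CPM in Mlkl-/- Ptpn6∆PMN (log2 0.46, SE 0.19, edgeR adjusted p = 0.471). Casp1, Mefv and Nlrp12 were lower without overlap, so that 5 of the 10 were apart, where 41.1% of all genes were. The edgeR test called 0% of all genes, DESeq2 called 0 of the 10, and 1 (Aim2) had a p under 0.05 before adjustment. In mean log2 CPM, late-stage neutrophil markers were lower with Casp8 deleted (11.93 against 12.23), as were interferon genes (5.95 against 6.61) and erythroid markers (5.31 against 7.03). B cell markers (5.29 against 5.17) and primary granule markers (4.76 against 4.40) were higher. The part of these lists was not tested.

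With Ripk3 absent, Casp4 had 38.0 and 50.6 CPM in Ripk3-/- Mlkl-/- Casp8∆PMN Ptpn6∆PMN, against 31.2, 30.6 and 59.7 CPM in Ripk3-/- Mlkl-/- Ptpn6∆PMN. The Casp8-deleted values fell inside the spread of the others. All 10 genes overlapped here, against 14.7% of all genes that did not, and log2 differences ran from -0.21 (Nlrc4) to 0.37 (Mefv). The edgeR test again called 0% of all genes, DESeq2 called 0 of the 10, and before adjustment 0 of the 10 had a p under 0.05. With Casp8 deleted, the mean log2 CPM of primary granule markers was higher (5.26 against 3.43). That of B cell markers (6.00 against 6.45) and erythroid markers (5.56 against 6.44) was lower. The part of these lists was not tested either. The effect of Casp8 deletion without Ripk3 minus that with Ripk3 was largest in size for Mefv (log2 0.67, SE 0.32) and Casp4 (0.63, SE 0.42), and then Aim2 (-0.59, SE 0.26, edgeR adjusted p = 0.515). None passed where 0.00617% of all genes did, and DESeq2 called 0 of the 10. Before adjustment 1 of the 10 (Aim2) had a p under 0.05.

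The Casp8∆PMN Ptpn6∆PMN library, from the mouse labelled as inflamed, is the only one that had the Ptpn6 deletion with Ripk3 and Mlkl intact. It has no replicate, so no test was made. None of the 10 genes was more than 2-fold from the mean of Casp8∆PMN Mlkl-/- Ptpn6∆PMN, where 9.84% of genes were. Nlrp3 was at 114 CPM, the lowest of the 24 libraries with a group, against 166.7 and 122 CPM in Casp8∆PMN Mlkl-/- Ptpn6∆PMN. Aim2 was at 22.9 CPM, with 1 of the other 23 libraries lower, against 30.7 and 32.0 CPM in Casp8∆PMN Mlkl-/- Ptpn6∆PMN. Pycard was at 29.0 CPM, with 1 of 23 libraries higher, against 23.1 and 30.7 CPM in the same pair. Casp4 stood at 69.1 CPM and Casp1 at 54.3 CPM, within the values of the Mlkl-deficient pair. Its macrophage markers, at 45.1 CPM in sum, were lower than in any other library with a group (56.8 to 202 CPM), and their part in the Nlrp3 value was not tested. Inflammation and genotype cannot be told apart in this library.

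Over all 9 replicated genotypes at once, no gene of the 10 passed the edgeR F test, which called 1.58% of all genes. Casp4 was closest (adjusted p = 0.0511), followed by Mefv (0.0808) and Aim2 (0.0891), all by edgeR. An unadjusted p under 0.05 was reached by 6 of the 10 and by 3565 of all 16206 genes. DESeq2's likelihood ratio test called 5 of the 10 (Casp4, Mefv, Aim2, Nlrp12 and Nlrp3) and 2677 genes in all. Casp4 lay close enough to the threshold that leaving out single libraries of Ripk3-/- Ptpn6∆PMN (replicate 1 or 2) or Ripk3-/- Mlkl-/- Ptpn6∆PMN (replicate 1 or 3) brought it past (edgeR adjusted p = 0.00499 to 0.0495). Gsdmd had the highest p of the 10 (edgeR adjusted p = 0.551), with group means between 139 CPM in wild-type and 168 CPM in Casp8∆PMN Mlkl-/- Ptpn6∆PMN.

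Casp1 and Casp4 had the most similar profiles among the 45 pairs of these genes, with a Pearson correlation of log2 CPM of 0.93 over the 24 libraries with a group. The libraries share groups, depth and cell makeup, and correlations are given as a description. Mefv and Nlrp12 followed at 0.75. The most opposed pairs were Nlrp3 with Pycard (-0.76) and Aim2 with Pycard (-0.75). Casp4 and Casp1 also followed late-stage neutrophil markers (0.83 and 0.81) and ran against B cell markers (-0.84 and -0.88). Nlrc4 went the other way, at -0.74 with late-stage and 0.78 with B cell markers. Nlrp3 followed macrophage markers (0.76) and ran against primary granule markers (-0.66), and Pycard did the reverse (-0.73 and 0.62). Aim2 had values of 0.61 with macrophage, -0.50 with late-stage and 0.36 with B cell markers.

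**Figure D4:**
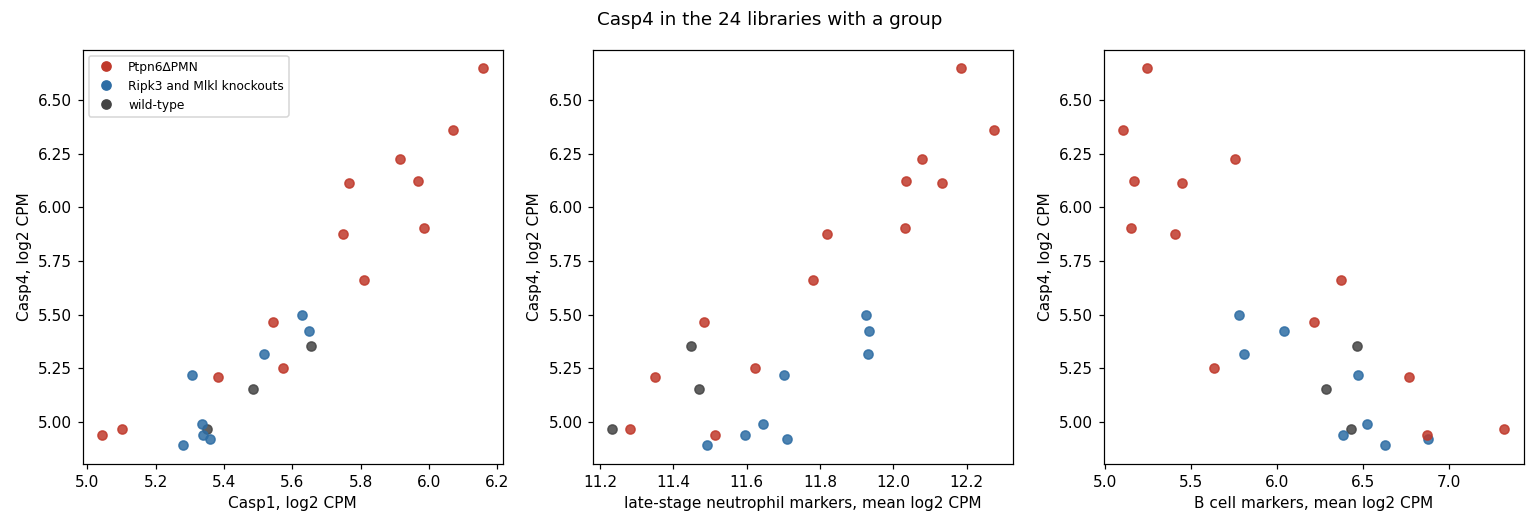
Casp4 (log2 CPM) in each of the 24 libraries with a group, against Casp1 (left), the mean of 10 late-stage neutrophil markers (middle) and the mean of 10 B cell markers (right). Casp4 is higher where Casp1 and the late-stage markers are higher (r = 0.93 and 0.83) and is lower where B cell markers are higher (r = -0.84).

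The 3 genes most like each member over the 24 libraries were also listed. For Casp4 these were Gk, Atp6v1a and Alas1 (each at 0.95), for Casp1 Casp4, Lyrm5 and Asb7 (0.93 each), and for Aim2 Dusp6, Ptgs2 and Gas6 (0.84 to 0.87). Nlrp3 was most like Hecw2, Cd101 and Vnn3 (0.92 to 0.95), Mefv like St3gal4, Rufy4 and Tlr4 (0.88 to 0.92), and Nlrp12 like Tnfsf14, Slc35a5 and Casc3 (0.92 to 0.94). Pycard (Eif3k, Atp5g3 and Mpnd), Gsdmd (Prrg2, Dynlt1f and Evi2b), Nlrc4 (Aen, Armcx2 and Rbm19) and Naip5 (Syne1, Hjurp and Nhsl2) reached 0.85 to 0.90.

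Of 35 further genes of the pathway, 34 were in the table and 31 passed the filter. Deletion of Ptpn6 in Mlkl-/- neutrophils called 1 of the 31, which was Gbp2, a guanylate-binding protein that helps caspase-11 and Aim2 reach bacteria. Gbp2 had 89.0 and 155 CPM in Mlkl-/- Ptpn6∆PMN and 44.7 to 53.5 CPM in the 3 Mlkl-/- libraries (log2 1.34, SE 0.29, edgeR adjusted p = 0.0330). Both deleted libraries were higher. Only the fit without Mlkl-/- Ptpn6∆PMN replicate 1 kept the call among the 5 that each dropped 1 library (edgeR adjusted p = 0.0181 to 0.448). Log2 differences of the 31 ran from -1.41 to 1.34. Of the uncalled genes, a pair is named here after its values were seen. Ninj1, which ruptures the membrane late in lytic death, averaged 43.8 CPM in Mlkl-/- Ptpn6∆PMN and 112 CPM in Mlkl-/- libraries and did not pass (edgeR adjusted p = 0.0631). The substrate gene Il1b was at 278 CPM in Mlkl-/- Ptpn6∆PMN and 416 CPM in Mlkl-/- libraries (edgeR adjusted p = 0.546). In Ripk3-/- and in Ripk3-/- Mlkl-/- neutrophils edgeR called 0 of the 31 after the deletion, with 4 and 1 at an unadjusted p under 0.05. The comparisons of Ripk3-/- with wild-type, of Ripk3 loss and of Casp8 deletion in either background also called 0 of the 31 in edgeR, with 5, 17, 7 and 3 at an unadjusted p under 0.05.

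Gbp2 was also called over all 9 genotypes at once (edgeR adjusted p = 0.0380), a call kept in 9 of 23 fits without 1 library (0.00239 to 0.222). Txnip, the thioredoxin-binding protein known as a partner of Nlrp3, was called in other comparisons. It had 1212 to 1676 CPM in Mlkl-/- and 858 to 971 CPM in wild-type libraries (log2 0.64, SE 0.13, edgeR adjusted p = 0.0163), and it also rose in Ripk3-/- Mlkl-/- (log2 0.63, SE 0.14, edgeR adjusted p = 0.0302). Averaged over backgrounds it fell by 0.34 with Ptpn6 deletion (SE 0.08, edgeR adjusted p = 0.0328). The Mlkl-/- call was kept without Mlkl-/- replicate 1 and lost without any other single library (edgeR adjusted p = 0.00589 to 0.127), the Ripk3-/- Mlkl-/- call was lost in all 5 such fits (0.0759 to 0.274), and the averaged one was kept in 6 of 16 (0.0154 to 0.192) and lost in a fit of only the compared libraries (0.128).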

How the data were processed

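Messenger RNA of 25 bone marrow neutrophil libraries, from cells collected between Percoll layers of 68% and 78%, was read in 100-base pairs. The authors deposited 1 table of estimated counts per gene symbol, which are expected counts and need not be whole. Salmon 0.14.1 and build GRCm38.p6 are named in the submitters' processing notes, as is DESeq2. Estimated counts can split reads between close relatives.

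The counts were rounded. Genes with a count of at least 10 in enough libraries and a total of 15 (edgeR's filterByExpr) were kept. One quasi-likelihood fit (edgeR 4.0.16, R 4.3.3) with TMM scaling used 23 libraries of 9 groups, with 14 residual degrees of freedom and 13 comparisons. P-values were adjusted by Benjamini-Hochberg over all 16206 genes, at a threshold of 0.05. The SE is the size of the log2 change over the root of F. Log2 CPM used a prior count of 2. The test was checked on simulated counts, drawn for each gene separately. These hold no differences in cell makeup shared by many genes, so the check does not cover that spread. Alternatives were DESeq2 size factors, no filter, DESeq2 1.42.0, a replicate block, fits without 1 library each, and fits of only the compared libraries. The genes named were the members, the 3 most correlated genes of each, and pathway genes called in a comparison, plus Ninj1 and Il1b, chosen after their values were seen. The members and lists were chosen with earlier results of these data known. The inflamed library was compared by value, and the one with conflicting labels entered no comparison. In no comparison with 3 shared replicate numbers did every same-numbered pair correlate above 0.1, so libraries were not treated as pairs.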

Additional observations from a re-analysis of the deposited data

Results flagged for a closer look

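One library has labels that disagree, since its title names the Ripk3-/- Mlkl-/- genotype and its genotype field names Mlkl-/- Ptpn6∆PMN. It was left out of every comparison, and 4 of the 10 genes in it were above every wild-type library, as were 31.8% of all genes tested. Nlrp3 stood at 193 CPM in it, against 134 to 156 CPM in wild-type. Gsdmd stood at 157 CPM, against 132 to 143 CPM in wild-type. Mefv was at 37.2 CPM, against 25.7 to 29.1 CPM in wild-type, and Nlrp12 at 207 CPM, against 137 to 167 CPM in wild-type.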

How the results depend on the processing

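Of 1750 alternative values for single genes, 1668 kept their side of the threshold, 34 lost and 48 gained a call, and 0 changed direction while called. Values that changed sign without a call are counted among the 1668. In each list the comparisons run in the order of the report. DESeq2 called 765, 38, 4, 669 and 32 genes for Ptpn6 deletion (in Mlkl-/-, in Ripk3-/-, in both, averaged, by background), 802, 99 and 447 for Mlkl-/-, Ripk3-/- and Ripk3-/- Mlkl-/- against wild-type, 1560 for Ripk3 loss, 90, 1 and 10 for Casp8 deletion (with Ripk3, without, difference) and 2677 for any difference. Of the 10 genes it called 3 in Mlkl-/-, 4 for Ripk3 loss and 5 for any difference. Without the filter, edgeR called 20 genes for Ptpn6 deletion in Ripk3-/-, 3 in both, 383 averaged and 1 by background, 56 for Ripk3-/-, 324 for Ripk3 loss, 1 and 2 for Casp8 deletion with Ripk3 and its difference, and 709 for any difference, with 1, 1 and 2 of the 10 for Mlkl-/-, Ripk3 loss and any difference. With only the compared libraries it called 532 genes for Ptpn6 deletion in Mlkl-/-, 1 in Ripk3-/-, 22 averaged (0 of the 10) and 1 by background, 891 for Mlkl-/- (3 of the 10), 182 for Ripk3-/-, 833 for Ripk3-/- Mlkl-/- (1 of the 10), 1 for Ripk3 loss, and 4 and 0 for Casp8 deletion with Ripk3 and its difference. DESeq2 size factors called 1 of the 10 for any difference.

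With the replicate number as a block, edgeR called 101 genes for Ripk3-/- Mlkl-/-, 431 for Ripk3 loss (1 of the 10, Casp4, adjusted p = 0.0349) and 1 of the 10 for any difference, and it lost Txnip in Ripk3-/- Mlkl-/- (adjusted p = 0.0555). Correlations of same-numbered libraries were -0.0638, -0.0787 and -0.0520 for Ptpn6 deletion in Ripk3-/- and 0.174 and 0.195 for Ripk3-/- Mlkl-/- against wild-type, which shares only 2 numbers, so the numbers are not shown to pair samples.

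Leaving out a library gave 2 to 191 genes for Ptpn6 deletion in Mlkl-/-, 3 to 156 in Ripk3-/-, 1 to 18 in both, 7 to 1037 averaged and 0 to 34 by background. It gave 38 to 589 for Mlkl-/-, 23 to 38 for Ripk3-/-, 19 to 85 for Ripk3-/- Mlkl-/-, 2 to 4861 for Ripk3 loss, 0 to 1 for Casp8 deletion with Ripk3 and without, 0 to 2 for its difference, and 55 to 3315 for any difference. Of the 10 genes it called 0 to 0 for Ptpn6 deletion in Mlkl-/-, 0 to 3 averaged, 0 to 2 for Mlkl-/-, 0 to 6 for Ripk3 loss and 0 to 5 for any difference. The cause of these changes was not tested. Nlrc4 had the lowest counts of the 10 genes, at 1.88 to 5.40 CPM, and so the largest counting error relative to its level.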
